A study of Mus musculus with 12 samples.

Results

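Dendritic cells of the lung were followed through 10 genes that mark their subsets, chosen by symbol from a list of markers, out of 55414 genes in the table. The choice was made with earlier results of these data known. Xcr1, Clec9a, Batf3 and Itgae mark type 1 conventional dendritic cells (cDC1), Cd209a marks type 2 conventional or monocyte-derived dendritic cells (cDC2), Siglech and Ccr9 mark plasmacytoid dendritic cells, Flt3 and Zbtb46 mark conventional dendritic cells at large, and Fscn1 marks mature, migrating cells. All 10 symbols were found once. RNA was sequenced from the whole lungs of 12 mice, 6 of each genotype, taken on day 4 after lipopolysaccharide (LPS) exposure, which models acute lung injury. IL-10 B-KO mice (B-KO) carried Il10 flox/flox together with Mb1-Cre, a Cre recombinase expressed in the B lineage, so that interleukin-10 was deleted in B cells. IL-10 B-WT mice (B-WT) were their controls, and how their alleles differ beyond the B cell deletion is not spelled out in the sources used here. All mice had a C57BL/6J background, both genotypes received LPS from Escherichia coli by instillation, and no lung without LPS was analysed here. The age and sex of each mouse are not given in the sources used here. The comparison asks whether dendritic cell transcripts differed when B cells could not make IL-10.

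Dendritic cells sample antigen in the airway and carry it to lymph nodes, where they start T cell responses. The cDC1 subset depends on the transcription factor Batf3, takes up dead cells through Clec9a, answers the chemokine Xcl1 through Xcr1 and cross-presents antigen to CD8+ T cells. The cDC2 subset primes CD4+ T cells, and plasmacytoid dendritic cells release type I interferon in response to viral nucleic acid.

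The promoters of 2 gene pairs are printed first because their transcripts varied together most closely from lung to lung, as described with the correlations. Each is the 250 bases before the RefSeq start site (GRCm38.p6), written 5′ to 3′ on the strand of the gene, with every E-box (CANNTG, the 6 letters bound by basic helix-loop-helix factors such as Tcf4 of plasmacytoid cells) in capitals. Siglech and Ccr9 lie at chr7:55767934-55768183 (+) and chr9:123766961-123767210 (+), and Cd209a and Mgl2 at chr8:3748985-3749234 (−) and chr11:70130107-70130356 (+).
Siglech: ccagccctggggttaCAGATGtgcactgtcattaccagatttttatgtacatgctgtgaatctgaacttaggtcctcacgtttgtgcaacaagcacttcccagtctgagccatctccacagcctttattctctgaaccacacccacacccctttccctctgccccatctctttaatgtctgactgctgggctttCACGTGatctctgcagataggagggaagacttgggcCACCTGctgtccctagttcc
Ccr9: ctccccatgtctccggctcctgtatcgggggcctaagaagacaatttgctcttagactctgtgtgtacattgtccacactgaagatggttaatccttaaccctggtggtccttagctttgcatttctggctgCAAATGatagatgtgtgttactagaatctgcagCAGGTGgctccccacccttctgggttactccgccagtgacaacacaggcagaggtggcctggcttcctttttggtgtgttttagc
Cd209a: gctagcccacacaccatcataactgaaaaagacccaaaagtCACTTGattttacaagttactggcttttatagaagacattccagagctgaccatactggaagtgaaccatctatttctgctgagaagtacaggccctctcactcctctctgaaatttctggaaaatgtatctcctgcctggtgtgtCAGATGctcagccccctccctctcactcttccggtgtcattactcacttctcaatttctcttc
Mgl2: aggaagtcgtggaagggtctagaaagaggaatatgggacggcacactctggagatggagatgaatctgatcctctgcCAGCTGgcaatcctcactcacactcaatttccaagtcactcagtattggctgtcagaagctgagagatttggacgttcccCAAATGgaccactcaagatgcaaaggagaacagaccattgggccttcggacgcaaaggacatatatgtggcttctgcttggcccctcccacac

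On both strands, the Siglech promoter held 3 E-boxes and the Ccr9, Cd209a and Mgl2 promoters 2 each, while 66.2% of the 32851 RefSeq promoters of this length held at least 1. The narrower form CACCTG, which overlaps CANNTG by definition, was present in Siglech and in Ccr9 and absent from Cd209a and Mgl2, and 17.2% of all promoters held it. Of the 10 genes, 9 had an entry, and Zbtb46 was the other one with CACCTG and the only one with the AP-1 motif TGANTCA, to which Batf3 binds with a partner and which 6.75% of all promoters held. Among these 9, E-boxes were most numerous in Zbtb46, with 5, and Fscn1 held 0. A match describes these letters and not a bound site.

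Values are TPM, abundances that the authors scaled for transcript length and to an equal sum per library, which can therefore be compared between genes. TPM keep no read depth, so that precision rests on the spread between lungs. In whole lung RNA, fewer cells of a type and less RNA per cell cannot be told apart. Log2 fold changes are B-KO against B-WT on log2(TPM + 1), which understates the change of low genes, with the standard error (SE) and the adjusted p of limma. A gene was called changed where its adjusted p did not exceed 0.05 and its log2 fold change reached 1 in either direction.

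The targeted gene could not check the labels. Il10 was listed at 0 to 0.88 TPM in the B-WT lungs and at 0 to 0.58 TPM in the B-KO lungs (two-sided exact permutation p = 0.745), too low for the fit across genes, and the cells that keep Il10 are part of the same tissue. Cd79a, part of the B cell receptor and, as background, the locus into which Mb1-Cre was built, separated the genotypes at 15.3 to 259 TPM against 0 to 5.73 TPM (log2 fold change −4.16, SE 0.712, adjusted p = 0.0222). B cell markers summed to 72.9 to 912 TPM in B-WT and to 13.1 to 91.5 TPM in B-KO lungs, with all 8 lower in mean, 1 of them called, and Cd79a and Pax5 at 0 in at least 1 lung. A pair of lungs stood apart from their own genotype. The monocyte and macrophage markers summed to 13612 TPM in B-WT replicate 1, the highest of all 12 lungs, where the other B-WT lungs began at 785 TPM, and to 3702 TPM in B-KO replicate 2, the lowest of its genotype, whose highest was 12052 TPM. B-WT replicate 2 held the 912 TPM of B cell markers, and also the highest T cell sum, 247 TPM. Calls that changed without B-WT replicate 1 and B-KO replicate 2 are given beside the genes, a setting chosen after the values were seen that called 9.69% of all genes tested. Of the other marker lists, mesenchymal genes had 1 call, Pdgfrb, a receptor of pericytes and fibroblasts, which was lower in B-KO lungs (54.6 ± 15 against 20.3 ± 7.88 TPM, log2 fold change −1.44, SE 0.288, adjusted p = 0.0456). The NK cell, alveolar macrophage and epithelial lists had none.

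None of the 10 dendritic cell genes was called changed between the genotypes. After a filter that required at least 1 TPM in at least 6 lungs, 8 of the 10 were tested, of which 5 were higher and 3 lower in B-KO lungs. Their median log2 fold change was 0.085, and that of all genes tested was 0.099. Of 15148 genes tested, 0.495% were called, 0.469% as lower in B-KO lungs and 0.0264% as higher. One of the 8, Cd209a, had an unadjusted p up to 0.05, as had 12.5% of all genes tested. The genotypes overlapped for each of the 10 genes, as they did for all but 1.02% of the genes tested.

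**Figure D1:**
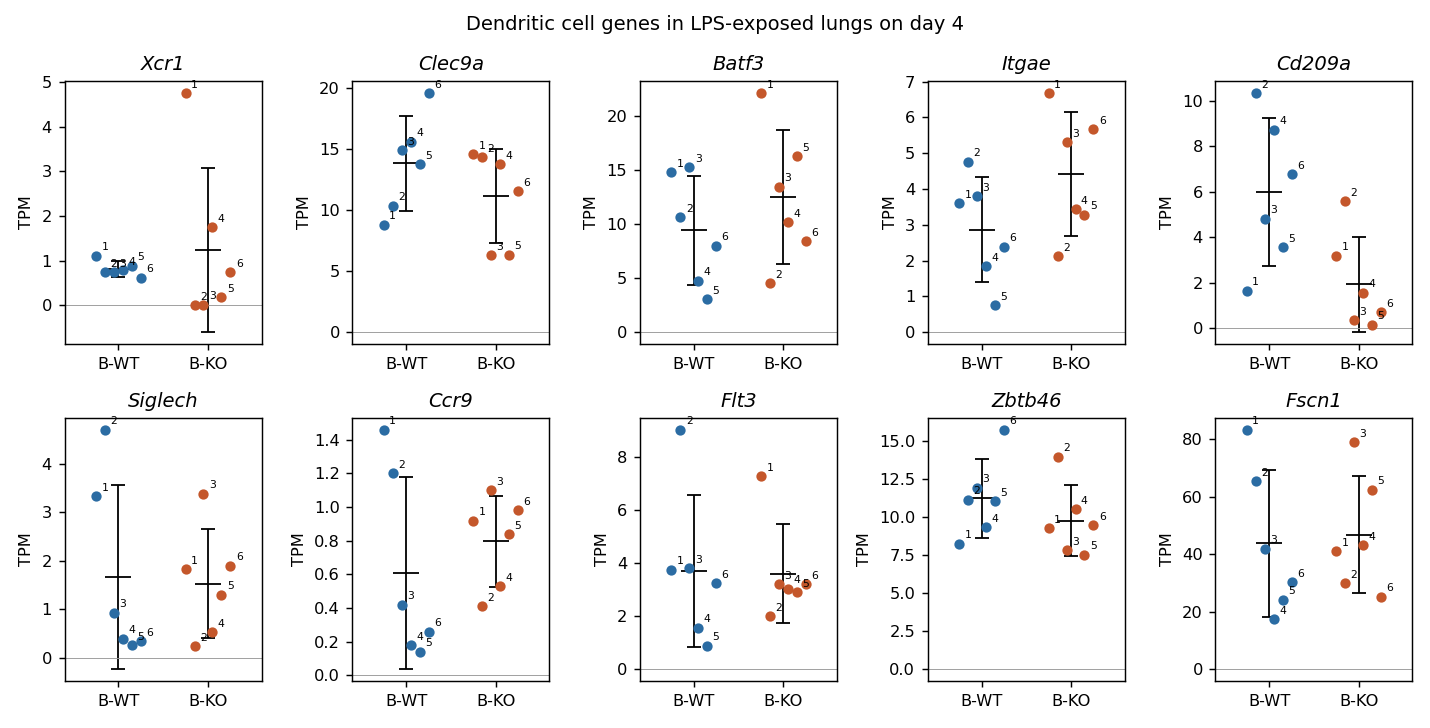
TPM of the 10 dendritic cell genes in each lung (points, labelled with the replicate number), with the mean and SD of the 6 B-WT (B-WT) and 6 B-KO (B-KO) lungs as bars; each panel has its own linear axis. Cd209a has 4 of 6 B-KO lungs below every B-WT lung, and Xcr1 ranges from 0 to 4.75 TPM among the B-KO lungs against 0.62 to 1.11 TPM in B-WT.

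Among the cDC1 genes, Xcr1 differed in spread between the genotypes more than in mean. Xcr1 encodes the receptor for Xcl1, which only cDC1 carry at high level. The B-WT lungs, here and throughout in the order of replicates 1 to 6, had 1.11, 0.74, 0.74, 0.79, 0.89 and 0.62 TPM of it, and the B-KO lungs 4.75, 0, 0.02, 1.75, 0.19 and 0.74 TPM. The 6 B-WT lungs lay close together, whereas 3 B-KO lungs were below all of them and 2 above all of them. The means were 0.815 ± 0.169 and 1.24 ± 1.84 TPM (SD, n = 6 each; exact permutation p = 0.959). Xcr1 did not pass the filter, having reached 1 TPM in 3 lungs, and without the filter its log2 fold change was −0.01 (SE 0.382, adjusted p = 0.999). The difference in spread was not tested.

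Clec9a, the receptor for exposed actin filaments of dead cells, was at 8.79, 10.34, 14.88, 15.59, 13.73 and 19.56 TPM in B-WT lungs and at 14.57, 14.3, 6.31, 13.75, 6.35 and 11.51 TPM in B-KO lungs. B-KO replicates 3 and 5 were the lowest of all 12, and the others lay within the B-WT range. The means of 13.8 ± 3.86 and 11.1 ± 3.87 TPM (n = 6 each) differed by a log2 fold change of −0.32 (SE 0.254, adjusted p = 0.584). Clec9a (chr6:129408862-129424763, + strand, GRCm38, GENCODE M21) overlaps the 3′ end of Clec1b by 474 bases on the same strand and ends 9 bases before Clec1a, which runs on the opposite strand. Whether the libraries kept strand is not given in the sources used here, and reads from the stretch shared with Clec1b could belong to either gene even with strand kept.

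Batf3, the transcription factor on which cDC1 depend, was at 14.78, 10.61, 15.24, 4.78, 3.03 and 7.99 TPM in B-WT and at 22.11, 4.55, 13.45, 10.18, 16.26 and 8.4 TPM in B-KO lungs. Only B-KO replicates 1 and 5 exceeded the highest B-WT lung, and the lowest lung was an B-WT one. Its means were 9.41 ± 5.07 and 12.5 ± 6.21 TPM (log2 fold change 0.41, SE 0.398, adjusted p = 0.66). Batf3 is also expressed by activated T cells and by other myeloid cells.

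Itgae encodes CD103, the integrin chain by which lung cDC1 and resident T cells bind E-cadherin of the epithelium. It was at 3.6, 4.76, 3.8, 1.85, 0.76 and 2.39 TPM in B-WT and at 6.68, 2.13, 5.31, 3.43, 3.28 and 5.67 TPM in B-KO lungs. B-KO replicates 1, 3 and 6 were above every B-WT lung. The difference was within the spread (2.86 ± 1.46 and 4.42 ± 1.73 TPM, log2 fold change 0.53, SE 0.302, adjusted p = 0.474, exact permutation p = 0.136). T cell markers, which bear on Itgae and Batf3, summed to 26.1 to 247 TPM in B-WT and to 54.3 to 234 TPM in B-KO lungs, with all 9 above 0 in every lung, 4 higher and 5 lower, and none called. Their part in the Itgae values was not tested. Itgae (chr11:73090583-73147446) contains the gene Haspin, of 2810 bases, on the other strand.

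The 4 cDC1 genes did not vary as 1 group from lung to lung. Xcr1 and Clec9a had Pearson's r = 0.38 over 12 lungs (permutation p = 0.221, adjusted p = 0.309 over 14 pairs; rho = 0.20, permutation p = 0.539), and the sign differed within B-WT (r = −0.77, exact permutation p = 0.0778) and within B-KO (r = 0.59, exact permutation p = 0.199). Xcr1 with Itgae (r = 0.29, permutation p = 0.353, adjusted p = 0.38, rho = 0.14) and Clec9a with Itgae (r = −0.36, permutation p = 0.247, adjusted p = 0.312, rho = −0.31) did not pass either. Batf3 and Itgae, a pair chosen after the values were seen, had r = 0.82 over all lungs, 0.91 within B-WT and 0.67 within B-KO, and 0.64 without the 2 lungs farthest from the Batf3 median.

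The 12 other cDC1 genes were all measured, and 9 were higher and 3 lower in B-KO lungs. The median of their log2 fold changes was 0.36, and that of all genes tested 0.10. None was called, and 2 had an unadjusted p up to 0.05, both higher, as had 6.83% of all genes tested in that direction. They were Rab7b, a GTPase of endosomes, at 7.88 ± 6.29 against 17.6 ± 8.07 TPM (log2 fold change 1.14, SE 0.437, adjusted p = 0.334), and Id2, a helix-loop-helix inhibitor that cDC1 need, at 83.8 ± 49.3 against 145 ± 49.8 TPM (0.88, SE 0.36, adjusted p = 0.353). Cd24a and Naaa, the other abundant members of the list, had log2 fold changes of −0.07 and 0.57. Without B-WT replicate 1, Rab7b was called, and without B-KO replicate 2 as well, Rab7b, Id2 and Naaa were. These settings called 3.85% and 9.69% of all genes tested. Id2, Cd24a and Naaa are made by many lung cells, and the monocyte and macrophage markers moved in the same direction as Rab7b and Id2, with 10 of 10 higher in B-KO lungs, 9 at an unadjusted p up to 0.05 and none called (median log2 fold change 1.57). Their part in the Rab7b and Id2 values was not tested.

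Cd209a, the mouse relative of the lectin DC-SIGN found on cDC2 and monocyte-derived dendritic cells, had the largest difference of the 10 genes and was lower in B-KO lungs. In replicate order, the B-WT lungs had 1.65, 10.35, 4.82, 8.74, 3.57 and 6.78 TPM of it, and the B-KO lungs 3.19, 5.58, 0.36, 1.55, 0.15 and 0.71 TPM. Of the B-KO lungs, 4 were below every B-WT lung, and replicates 1 and 2 lay among them. The lowest B-WT lung was replicate 1 and the highest B-KO lung replicate 2, the pair that stood apart in their macrophage markers. The means were 5.99 ± 3.26 and 1.92 ± 2.11 TPM (n = 6 each; log2 fold change −1.39, SE 0.455, unadjusted p = 0.00899). The difference missed the threshold across all genes (adjusted p = 0.28). By the exact permutation test of this 1 gene p was 0.026, where 924 arrangements allow a smallest p of 0.00216, and 11.2% of all genes tested had an exact p of at most 0.05.

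The call on Cd209a depended on single lungs. Leaving out 1 lung at a time gave log2 fold changes from −1.68 to −1.18 with adjusted p from 0.049 to 0.589, and exact p from 0.0108 to 0.0541. Without B-WT replicate 1 it passed the threshold (log2 fold change −1.64, adjusted p = 0.049), as it did with limma's library weights (−1.59, adjusted p = 0.0352), settings under which 3.85% and 2.1% of all genes were called (1.55% and 1.56% as lower). Without B-WT replicate 2 the exact p was 0.0541, and without B-KO replicate 5 it was 0.0519. With both B-WT replicate 1 and B-KO replicate 2 left out, chosen after the values were seen, the genotypes no longer overlapped, at 6.85 ± 2.77 and 1.19 ± 1.24 TPM once the lowest B-WT and the highest B-KO lung for Cd209a were gone (n = 5 each; log2 fold change −1.93, adjusted p = 0.00475, exact permutation p = 0.00794), in a setting that called 9.69% of all genes, 2.62% as lower.

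**Figure D2:**
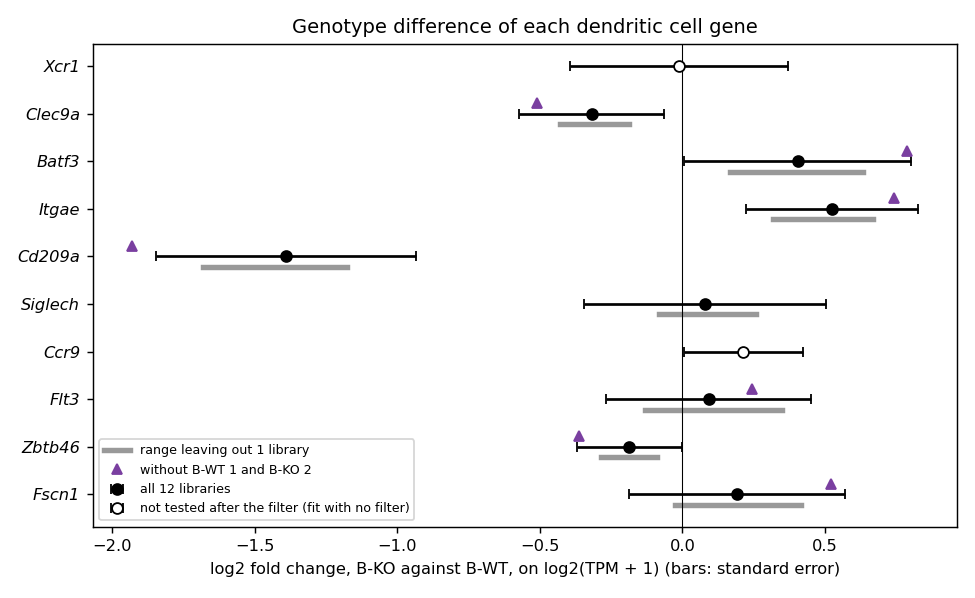
Log2 fold change of each gene, B-KO against B-WT on log2(TPM + 1), with its SE (black circles, all 12 lungs; open circles, genes below the filter, from the fit without it), the range when 1 lung is left out (gray bars) and the value without B-WT replicate 1 and B-KO replicate 2 (triangles). Cd209a lies at −1.39 and stays between −1.68 and −1.18 with any 1 lung left out, and every other gene lies between −0.32 and 0.53.

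Of the 12 other cDC2 genes, 10 were tested, 6 higher and 4 lower in B-KO lungs (median log2 fold change 0.14), and none was called. Unadjusted p was at most 0.05 for 4 of them, 1 higher and 3 lower, beside 6.83% and 5.71% of all genes tested. The 3 lower ones were Klf4, Irf4 and Mgl2. Klf4, a transcription factor of cDC2 that endothelial and other lung cells also express, was at 109 ± 30.1 against 65.6 ± 8.79 TPM (log2 fold change −0.69, SE 0.189, adjusted p = 0.164). Irf4, which cDC2 share with plasma cells, was at 1.71 to 22.8 against 0.72 to 1.69 TPM (−1.15, SE 0.444, adjusted p = 0.341), in the direction of the B cell markers. Sirpa, a surface receptor that cDC2 share with macrophages, was the higher one at 79.6 ± 58.3 against 133 ± 45 TPM (0.88, SE 0.376, adjusted p = 0.372), in the direction of the macrophage markers. Sirpa was called without B-WT replicate 1, with or without B-KO replicate 2. Ltb, a cytokine of lymphocytes and cDC2, had a log2 fold change of −0.12 (SE 0.569). Clec4a4 and Cd209d were at 0 in at least 1 lung.

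Mgl2, the lectin CD301b of dermal and lung cDC2, followed Cd209a closely and was picked out after its values were seen. It was at 6.53, 16.87, 11.67, 19.56, 8.05 and 11.33 TPM in B-WT and at 7.86, 24.14, 2.57, 3.7, 2.63 and 2.18 TPM in B-KO lungs. The same B-KO replicates 3, 4, 5 and 6 that were below every B-WT lung in Cd209a were so in Mgl2. The correlation of Cd209a and Mgl2 was r = 0.93 over 12 lungs (Spearman's rho = 0.91), 0.94 within B-WT, 0.93 within B-KO, and 0.91 without the 2 lungs farthest from the Cd209a median. Mgl2 itself had a log2 fold change of −1.08 (SE 0.465, adjusted p = 0.373), and exact permutation p = 0.0628. The cDC2 list as a whole did not share this direction, with 6 of its 10 tested genes higher in B-KO lungs. Clec10a was among the higher ones, at 8.38 ± 2.64 against 9.96 ± 5.01 TPM (log2 fold change 0.10, SE 0.35, adjusted p = 0.909). B-WT replicate 1 and B-KO replicate 2 were the lowest B-WT and highest B-KO lungs for Mgl2 as for Cd209a, and with them left out, which by itself moves the genotypes apart, Mgl2 was called (log2 fold change −1.65, adjusted p = 0.00475), as were 9.69% of all genes.

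Plasmacytoid markers were low and uneven within each genotype. Siglech, a sialic acid-binding receptor of plasmacytoid dendritic cells that some macrophages also carry, was at 3.34, 4.71, 0.93, 0.39, 0.26 and 0.34 TPM in B-WT and at 1.83, 0.24, 3.39, 0.52, 1.3 and 1.9 TPM in B-KO lungs. B-WT replicates 1 and 2 were high and the other B-WT lungs below 1 TPM, while the B-KO lungs ran from 0.24 TPM, below every B-WT lung, to 3.39 TPM. The means of 1.66 ± 1.9 and 1.53 ± 1.13 TPM gave a log2 fold change of 0.08 (SE 0.424, adjusted p = 0.944), which turned to −0.028 when each library was centred on its median. Centring moved the median of all genes tested from 0.099 to −0.008.

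Ccr9, the receptor for the chemokine Ccl25, which plasmacytoid dendritic cells share with developing and gut-homing T cells, was at 1.46, 1.2, 0.42, 0.18, 0.14 and 0.26 TPM in B-WT and at 0.92, 0.41, 1.1, 0.53, 0.84 and 0.98 TPM in B-KO lungs. The order of lungs was nearly that of Siglech. Its means were 0.61 ± 0.572 and 0.797 ± 0.27 TPM (exact permutation p = 0.346), and it reached 1 TPM in 3 lungs, too few for the fit. The annotated span of Ccr9 holds 6 other genes in part or whole, among them Lztfl1 on the other strand over 23282 bases, and its 3′ end lies 67985 bases from the 3′ end of Xcr1, which runs on the other strand of chromosome 9.

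Siglech and Ccr9 varied together across lungs in both genotypes. The correlation was r = 0.93 over 12 lungs (permutation p = 4.00e-05, adjusted p = 2.80e-04 over 14 pairs) and rho = 0.92 (permutation p = 8.00e-05, adjusted p = 8.40e-04). It was 0.97 within B-WT (exact permutation p = 0.0125), 0.98 within B-KO (exact permutation p = 0.00139), and 0.94 without B-WT replicate 2 and B-KO replicate 3, the 2 lungs farthest from the Siglech median (permutation p = 1.90e-04).

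**Figure D3:**
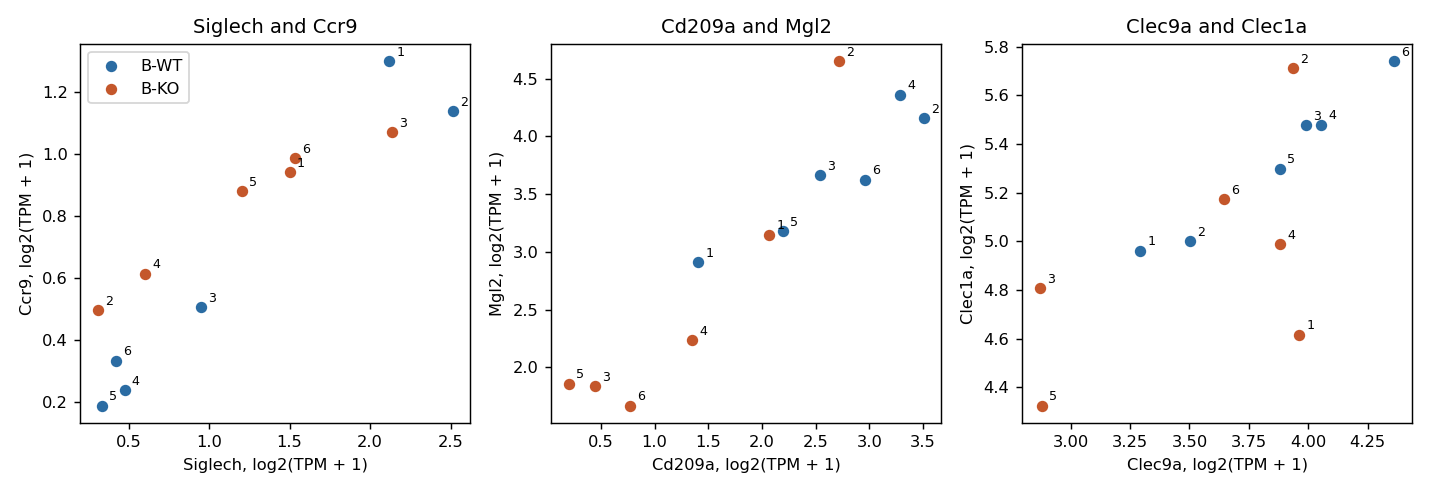
Log2(TPM + 1) of Siglech and Ccr9, of Cd209a and Mgl2, and of Clec9a and its genomic neighbour Clec1a in each of the 12 lungs (points, coloured by genotype and labelled with the replicate number). Pearson's r over all lungs is 0.93, 0.93 and 0.74, and in the third panel the B-WT lungs lie close to a line (r = 0.99) while the B-KO lungs scatter (r = 0.57).

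Of 15 other plasmacytoid genes, 12 were tested, 7 higher and 5 lower (median log2 fold change 0.11), and none was called. An unadjusted p of at most 0.05 was found for 2 genes in each direction, beside 6.83% of all genes tested as higher and 5.71% as lower. Ly6d, a surface protein of B cells as well as plasmacytoid precursors, was at 19.4 to 245 TPM in B-WT and at 2.12 to 25 TPM in B-KO lungs (log2 fold change −2.11, SE 0.616, adjusted p = 0.203). Spib, a transcription factor that B cells share, was the other lower one, and Tlr7 and Lair1, which macrophages also express, were the higher ones. The abundant members were Bst2, an interferon-induced antiviral protein (356 ± 186 and 479 ± 187 TPM), Irf7, the regulator of interferon genes (106 ± 117 and 189 ± 122 TPM), and Tcf4, the factor that plasmacytoid cells depend on (38.9 ± 10.9 and 41.3 ± 14.9 TPM). In log2 fold change Bst2 differed by 0.51, Irf7 by 1.20 and Tcf4 by 0.05, at adjusted p of 0.529, 0.446 and 0.945. Ly6d was called with library weights (adjusted p = 0.0417), and Ly6d, as lower, and Irf7, Tlr7 and Lair1, as higher, without B-WT replicate 1 and B-KO replicate 2. Weights called 2.1% of all genes tested, and leaving out that pair called 9.69%.

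Flt3, the receptor for the growth factor Flt3l on which dendritic cells depend, was at 3.74, 9.02, 3.79, 1.56, 0.88 and 3.24 TPM in B-WT and at 7.27, 1.99, 3.2, 3.02, 2.89 and 3.19 TPM in B-KO lungs. A single lung of each genotype, B-WT replicate 2 and B-KO replicate 1, stood well above the rest. These also had the highest T cell marker sums of their genotypes (247 and 234 TPM), while their B cell marker sums were 912 and 23.9 TPM. The part of T and B cells in the Flt3 values was not tested. The means were 3.7 ± 2.87 and 3.59 ± 1.86 TPM (log2 fold change 0.09, SE 0.36, adjusted p = 0.923), and the sign turned to −0.015 when libraries were centred on their medians. Flt3 overlaps the antisense gene Gm26597 by 936 bases.

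Zbtb46, a transcription factor of conventional dendritic cells and of endothelium, was at 8.26, 11.14, 11.93, 9.34, 11.04 and 15.76 TPM in B-WT and at 9.28, 13.98, 7.82, 10.54, 7.53 and 9.48 TPM in B-KO lungs. The genotypes overlapped over most of their range, with B-KO replicates 3 and 5 lowest. Its means of 11.2 ± 2.59 and 9.77 ± 2.34 TPM gave a log2 fold change of −0.19 (SE 0.184, adjusted p = 0.663). Without B-WT replicate 1 and B-KO replicate 2 they were 11.8 ± 2.39 and 8.93 ± 1.25 TPM (exact permutation p = 0.0238, n = 5 each), but Zbtb46 was not called (log2 fold change −0.36, adjusted p = 0.194). Those lungs were the lowest B-WT and the highest B-KO lung for Zbtb46, so that leaving them out moved the genotypes apart.

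Zbtb46 and Flt3, both used to mark conventional dendritic cells, had no correlation past the threshold across lungs (r = −0.08, permutation p = 0.796, rho = 0.06, permutation p = 0.868). Zbtb46 and the endothelial receptor Kdr, a pair chosen after the values were seen, had r = 0.77 over 12 lungs and 0.75 without the 2 lungs farthest from the Zbtb46 median. Of the 8 endothelial markers 7 were lower in B-KO lungs and none was called, their sums running from 2107 to 4442 TPM in B-WT and from 2034 to 4003 TPM in B-KO lungs, with B-WT replicate 1 the lowest and B-KO replicate 2 the highest of their genotypes. Clec9a and Zbtb46, also chosen after the values were seen, had r = 0.79, and Clec9a and Clec1a, a lectin of endothelium, r = 0.74 (0.99 within B-WT and 0.57 within B-KO). Without B-KO replicates 3 and 5 these were 0.65 (adjusted p = 0.111) and 0.56 (adjusted p = 0.155), no longer past the threshold by the permutation test. Cd209a and Zbtb46 had r = 0.69 (permutation p = 0.0123, adjusted p = 0.0246) and rho = 0.71 (permutation p = 0.0135, adjusted p = 0.0379). The adjustment ran over 14 pairs, 5 of them added after the values were seen. Without B-KO replicates 3 and 5 their r was 0.48 (permutation p = 0.158). All 3 relations missed the threshold over the 10 lungs that remained, where fewer lungs also limit the test. Among the 6 B-WT lungs, which do not include B-KO replicates 3 and 5, Clec9a and Clec1a had r = 0.99. That pair was chosen after these values were seen, so no p-value for it counts as support. The part of endothelial RNA in the Zbtb46 and Clec9a values was not tested.

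Fscn1 encodes the actin-bundling protein fascin of mature dendritic cells, which stromal and endothelial cells also make. It was the most abundant of the 10, at 83.3, 65.43, 41.91, 17.25, 24.06 and 30.13 TPM in B-WT and at 41.03, 29.84, 78.89, 43.17, 62.42 and 25.22 TPM in B-KO lungs. The highest and the lowest lung were both B-WT. The means were 43.7 ± 25.7 and 46.8 ± 20.4 TPM (log2 fold change 0.19, SE 0.38, adjusted p = 0.836). Fscn1 and Ccr7, the receptor that guides mature dendritic cells to lymph nodes, had r = 0.41 over all lungs (permutation p = 0.183, adjusted p = 0.294, rho = 0.34), 0.82 within B-WT (exact permutation p = 0.0472) and −0.15 within B-KO (exact permutation p = 0.769), and the difference between genotypes was not tested.

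Of the 16 other genes of mature or migrating dendritic cells, 15 were tested, 10 higher and 5 lower (median log2 fold change 0.21), and none was called. An unadjusted p up to 0.05 was found for 1 higher gene, Tnfrsf9, and 1 lower, Ccl22, a chemokine of mature dendritic cells (12.7 ± 2.54 against 8.2 ± 4.9 TPM, log2 fold change −0.71, SE 0.29, adjusted p = 0.353). Of all genes tested, 6.83% had such a p as higher and 5.71% as lower. The largest difference was that of Tnfrsf9, the costimulatory receptor 4-1BB (7.41 ± 8.99 against 13.5 ± 6.03 TPM, log2 fold change 1.23, SE 0.556, adjusted p = 0.382). The abundant members were Socs2, a feedback inhibitor of cytokine signaling, Cd40, the receptor for T cell help, and Relb, a subunit of NF-κB, with log2 fold changes of 0.44, 0.20 and 0.30 and adjusted p of 0.529, 0.882 and 0.698. Without B-WT replicate 1 and B-KO replicate 2, 3 genes of this list were called, all higher, Tnfrsf9 among them. That setting called 1043 of 14762 genes tested as higher. In B-WT replicate 1 this list summed to 485 TPM, the highest of all lungs, where the median B-WT lung had 238 TPM and the median B-KO lung 270 TPM.

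The 15 growth factors, receptors and attractants of dendritic cells were all tested, 10 higher and 5 lower (median log2 fold change 0.33), with none called. An unadjusted p up to 0.05 was found for 4 higher and 1 lower, beside 6.83% and 5.71% of all genes tested. Ccr1, a chemokine receptor of monocytes, neutrophils and immature dendritic cells, had the largest difference at 9.5 ± 12.8 against 36.4 ± 26.9 TPM (log2 fold change 2.08, SE 0.684, adjusted p = 0.282). Csf2ra, the receptor chain for GM-CSF, was at 127 ± 131 against 246 ± 96.5 TPM (1.503, SE 0.628, adjusted p = 0.36). Csf2rb, its partner chain, had a log2 fold change of 1.38 (adjusted p = 0.436) and Ccl21a, the lymphatic ligand of Ccr7, one of −0.05 (adjusted p = 0.95). Ccr1 was called with library weights (adjusted p = 0.0485), and without B-WT replicate 1 and B-KO replicate 2 the calls were 6 higher, with Ccr1, Csf2ra and Csf2rb among them, and 1 lower. Of 14762 genes tested without those lungs, 1043 were called as higher and 387 as lower.

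All 12 antigen handling genes were higher in mean in B-KO lungs (median log2 fold change 0.73 beside 0.10 over all genes), and none was called. Among them 2 had an unadjusted p up to 0.05, as had 6.83% of all genes tested in that direction. Ctss, a lysosomal protease that trims the invariant chain, was at 30.1 to 1254 TPM in B-WT and at 146 to 1372 TPM in B-KO lungs (log2 fold change 1.89, SE 0.784, adjusted p = 0.358). Cd74, the invariant chain of MHC class II, was at 3010 ± 1491 and 4066 ± 1494 TPM (0.52, adjusted p = 0.538), and Lamp1, a lysosomal membrane protein, at 482 ± 123 and 582 ± 68.6 TPM (0.30, adjusted p = 0.495). Without B-WT replicate 1 and B-KO replicate 2, 6 of the 12 were called as higher, Ctss among them. Among all 14762 genes tested in that setting, 1043 were called as higher. Macrophages and, for Cd74, B cells also make these transcripts, and neutrophil markers moved the same way, with 8 of 8 higher in B-KO lungs, sums of 326 to 2483 against 1093 to 7693 TPM, and none called. The part of these cells in the 3 lists was not tested. Without B-WT replicate 1, 7 genes of the dendritic cell lists were called, among them Ccr1, Lair1, Rab7b, Sirpa, Tlr7 and Tnfrsf9, in a setting that called 3.85% of all genes.

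Ordered by their mean over 12 lungs, the genes were Fscn1 at 45.2 TPM, Clec9a at 12.5, Batf3 at 10.9, Zbtb46 at 10.5, Cd209a at 3.95, Flt3 at 3.65, Itgae at 3.64, Siglech at 1.6, Xcr1 at 1.03 and Ccr9 at 0.703 TPM. Fscn1 was above Clec9a, Zbtb46 above Cd209a, and Itgae above Siglech in 12 of 12 lungs. The other neighbours in this order changed places from lung to lung, the first being the higher in 5 to 7 of 12 lungs. For Cd209a the place differed by genotype, since it was above Flt3 in 5 of 6 B-WT lungs and in 1 of 6 B-KO lungs, and likewise above Itgae in 5 of 6 and 1 of 6. Among the lowest genes, Siglech was above Ccr9 in 10 of 12 lungs. Clec9a and Xcr1, both cDC1 markers, thus stood at mean levels of 12.5 and 1.03 TPM.

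**Figure D4:**
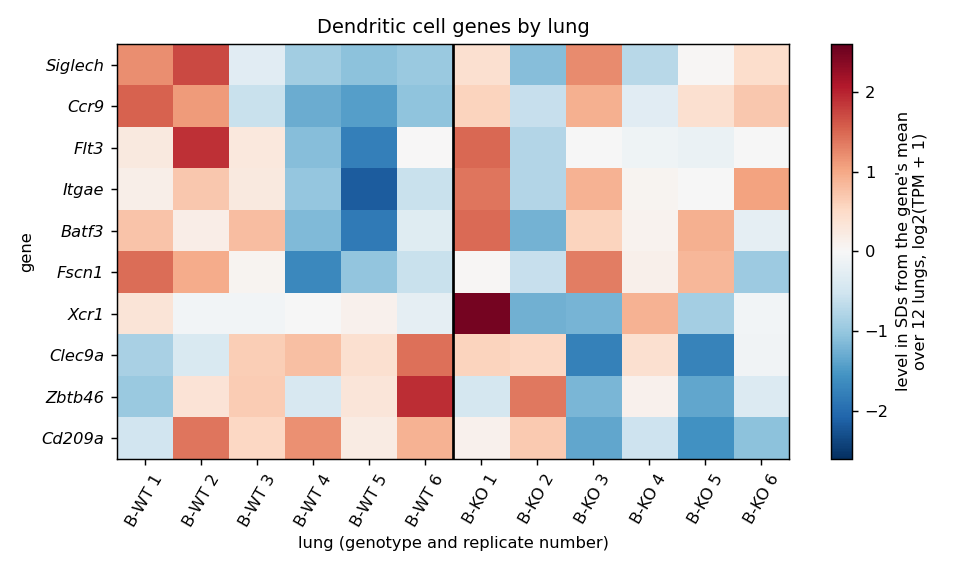
Level of each gene (rows) in each lung (columns, B-WT left and B-KO right of the line), on log2(TPM + 1) and expressed in SDs from the mean of the gene over the 12 lungs, red above and blue below. Siglech and Ccr9 share their pattern, B-KO replicates 3 and 5 are lowest in Clec9a, Zbtb46 and Cd209a while above their means in Batf3 and Fscn1, and B-WT replicate 5 is the lowest lung for 4 of the 10 genes.

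The genes whose levels followed a marker most closely over the 12 lungs, by Spearman's rho over all genes tested, were in none of the dendritic cell lists, and they are given as a description. They were Gm40639 (rho = 0.99), Bcl7a (0.98) and Rnf167 (0.97) for Cd209a, Kcnn4 (0.98), Sh3kbp1 (0.98) and Stk17b (0.97) for Siglech, and Khsrp (0.99), Gm5711 (0.97) and Cdc25a (0.97) for Fscn1. For Xcr1 the closest were Hspg2 (0.80), Gm29331 (0.79) and Lrrc3b (0.74).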

How the data were processed

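Lung RNA of 12 mice was sequenced and the values were used as deposited. The authors deposited TPM per gene and library, without pooling and rounded to 2 decimals, and the submitters' processing notes name fastp, HISAT, RSEM and GRCm38.p5. Versions, annotation release, strandedness and depth are not given in the sources used here. Library totals were 991646 to 994430 TPM over 55414 genes, no pair of libraries was identical, and of the columns with values of samples 0 stayed out of use.

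Genes with at least 1 TPM in at least 6 of 12 libraries were fitted with limma 3.58.1 in R 4.3.3 (trend, genotype as the only term) on log2(TPM + 1), and p-values were adjusted by Benjamini-Hochberg over all genes tested. Single genes were compared by two-sided exact permutation tests of the mean log2(TPM + 1), over all arrangements (Python 3.11.15, NumPy 2.4.6). SciPy 1.17.1 was used for ranks and for the adjustment over pairs. Correlations used log2(TPM + 1), with 100000 permutations over 12 lungs and exact permutation within a genotype, and were adjusted over 14 pairs, of which 5 were added after the values were seen.

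The members and lists were chosen with earlier results of these data known. Named were the 10 genes, for every other dendritic cell list the genes called or otherwise the 3 most abundant and the one with the largest fold change, Il10, Cd79a, and the 3 genes most like Xcr1, Cd209a, Siglech and Fscn1. The same rule was written for the marker lists of other cells, which are given as sums and counts with only their called genes named. Mgl2, Clec10a, Clec1a, Kdr, Ccl22, Spib, Tlr7, Lair1 and the genes called only in alternatives were named after their values were seen. Alternatives were another pseudocount, filters, scalings, library weights, a replicate block, and leaving out libraries. The fit was tested on simulated data. Gene positions are from GENCODE M21 (GRCm38) and promoters from RefSeq (GRCm38.p6), which has an entry for 9 of the 10 genes.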

Additional observations from a re-analysis of the deposited data

Results flagged for a closer look

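In all, 3 values stood apart from their own genotype by Dixon's test on TPM at the 95% level, among 20 groups of 6 lungs examined. For normally distributed values chance alone marks about 1 group in 20, a rate that need not hold for TPM. The test was not run on log2(TPM + 1), the scale of the other tests, on which high values stand out less. Xcr1 was at 4.75 TPM in B-KO replicate 1, the next highest lung of that genotype being at 1.75 TPM. Flt3 was at 9.02 TPM in B-WT replicate 2, with the next at 3.79 TPM, and at 7.27 TPM in B-KO replicate 1, with the next at 3.2 TPM. The B-KO lung was the same for both genes and was also the highest of all 12 lungs for Batf3 (22.11 TPM) and Itgae (6.68 TPM).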

How the results depend on the processing

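No dendritic cell gene was called with another pseudocount, filter or scaling or with the replicate block. The exception to the absence of calls was Cd209a, which made the count of called genes 1 with library weights, 1 without B-WT replicate 1 and B-KO replicate 2, and 0 to 1 when 1 library was left out. For the other dendritic cell lists the counts were 2 with weights, 25 without that pair and 0 to 7 with 1 library left out. Over all genes, 75 were called, against 6 with no filter, 28 after rescaling without immunoglobulin genes, 39 after quantile normalization, 36 after median centring, 318 with weights, 1430 without that pair, and 15 to 576 with 1 library left out, the extremes being B-KO replicate 5 and B-WT replicate 1. Same-numbered lungs did not deviate together (correlations from −0.292 to 0.0458). They were not compared with differently numbered lungs, so whether the numbers pair the mice was not tested. With the replicate as a block 45 genes were called. Exact tests at p of at most 0.05 numbered 1, against 2 without that pair and 0 to 1 with 1 library left out, and genes without overlap 0 against 1 without that pair. The sign of 3 small differences turned: Siglech was −0.028 and Flt3 −0.015 with median centring, Flt3 −0.031 with weights, and with 1 library left out Siglech ranged from −0.081 to 0.26 (negative without B-WT replicate 4, 5 or 6), Flt3 from −0.13 to 0.35 (negative without B-WT replicate 4 or 5 or B-KO replicate 1) and Fscn1 from −0.026 to 0.42 (negative without B-WT replicate 4), and Fscn1 was 0.521 without that pair. Of 14 correlations 7 passed an adjusted p of 0.05, against 2 without the 2 lungs farthest from the median (Siglech with Ccr9 and Cd209a with Mgl2), 4 within B-WT and 1 within B-KO, where 6 lungs limit the test. All 5 pairs added after the values were seen were among the 7, so their passing followed from their choice. Of the 9 preset pairs, Siglech with Ccr9 and Cd209a with Zbtb46 passed. The added pairs lower the adjusted p of Cd209a with Zbtb46, and an adjustment over the preset pairs alone was not run. Correlations that changed sign were Xcr1 with Clec9a (−0.77 within B-WT), Xcr1 with Itgae (−0.25 without 2 lungs, −0.07 within B-WT), Xcr1 with Batf3 (−0.29 without 2 lungs), Flt3 with Zbtb46 (0.11 within B-WT), Flt3 with Xcr1 (−0.20 within B-WT) and Fscn1 with Ccr7 (−0.15 within B-KO). The cause of these changes was not tested. Depth is unknown, so no detection limit can be given for Xcr1, Ccr9 and Siglech. A filter at a mean of 5 TPM leaves only Clec9a, Batf3, Zbtb46 and Fscn1 of the 10.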
